A study of Mus musculus with 4 samples.

Results

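The serum- and glucocorticoid-regulated kinase gene Sgk1 was described together with 5 other genes of the glucocorticoid system: Fkbp5, Tsc22d3, Per1, Ddit4 and Nr3c1. These 6 of the 31053 genes in the count matrices were taken by their symbols, and the question was whether Sgk1 moved with the other 5 in each type of brain cell after stroke. They were chosen by name with their UMI counts per class in these same libraries known, so their levels and ratios are a description and carry no test. Single cells of the ipsilateral cerebral hemisphere of male mice, 8 weeks old, were profiled with 10x Genomics droplets in 4 groups. One group had sham surgery, which the series text places at day 7. The other 3 groups had transient middle cerebral artery occlusion (tMCAO), in which the artery is blocked for a time and then reopened, and were sampled on day 1, day 3 or day 7. All hemispheres were digested with papain and cleared of myelin debris on Percoll before loading. Each group was 1 library, and how many mice it held is not given in the sources used here, so a difference between days cannot be told apart from a difference between libraries.

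Glucocorticoid hormone enters the cell and binds the glucocorticoid receptor, which Nr3c1 encodes. The receptor moves to the nucleus, binds palindromic response elements and raises the transcription of a set of genes found in many tissues. Sgk1 is one of them and encodes a serine/threonine kinase of the AGC family that acts on ion channels, transporters and FOXO factors. Fkbp5 encodes a co-chaperone that lowers the hormone affinity of the receptor, Tsc22d3 encodes GILZ, which restrains inflammatory transcription, Per1 encodes a clock protein, and Ddit4 encodes REDD1, an inhibitor of mTORC1 that also responds to hypoxia and energy stress. Sgk1 and Per1 also answer to other signals, cell depolarisation and cyclic AMP among them.

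Sgk1 lies on mouse chromosome 10 (GRCm38, chr10:21882184-21999903, plus strand) and overlaps no other annotated gene. RefSeq windows around annotated start sites in GRCm38.p6, each 300 bases long, covered 6 start sites of Sgk1. The glucocorticoid response palindrome was searched as the letters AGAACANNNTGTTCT, which read the same on both strands. It was present in 3 of 32851 windows, or 0.00913% of them, and 1 of those 3 belongs to Sgk1. The 250 bases before that start site, chr10:21993640-21993889, hold the response element, and the 250 bases before the next start site downstream, chr10:21994416-21994665, are shown beside them as the neighbouring promoter without it. Capitals mark the palindrome and the E-box CACGTG, a clock-factor motif that reads the same on both strands and was present in 7.15% of all windows.
Sgk1, upstream of start 21993890: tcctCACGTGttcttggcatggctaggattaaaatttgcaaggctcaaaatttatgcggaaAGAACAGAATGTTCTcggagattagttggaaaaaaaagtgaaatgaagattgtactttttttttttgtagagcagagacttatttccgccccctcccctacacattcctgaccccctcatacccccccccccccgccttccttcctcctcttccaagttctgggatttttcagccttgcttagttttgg
Sgk1, upstream of start 21994666: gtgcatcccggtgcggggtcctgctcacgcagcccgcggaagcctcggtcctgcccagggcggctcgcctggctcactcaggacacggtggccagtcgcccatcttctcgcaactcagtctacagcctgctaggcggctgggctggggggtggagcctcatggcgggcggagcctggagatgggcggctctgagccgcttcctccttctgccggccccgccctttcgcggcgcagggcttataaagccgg
The palindrome, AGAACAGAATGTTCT, spans chr10:21993701-21993715, and 174 bases lie between its end and the first of these start sites. Neither stretch overlaps an annotated exon of Sgk1, and both lie within the span of longer Sgk1 transcripts. Of the 13 windows of the 5 matched genes, no other held the palindrome. These exact letters are in 0.00913% of all windows, so their absence from a window tells little about a gene. Elements with other letters or outside the windows were not searched. None of the 13 held the cyclic AMP element TGACGTCA, which reads the same on both strands and is in 1.79% of all windows. The E-box was also found in 1 of the Per1 windows and in the Fkbp5 window, chr17:28486150-28486399 on the minus strand, which is shown as the promoter of the member with the highest ratio to sham.
Fkbp5, upstream of start 28486149: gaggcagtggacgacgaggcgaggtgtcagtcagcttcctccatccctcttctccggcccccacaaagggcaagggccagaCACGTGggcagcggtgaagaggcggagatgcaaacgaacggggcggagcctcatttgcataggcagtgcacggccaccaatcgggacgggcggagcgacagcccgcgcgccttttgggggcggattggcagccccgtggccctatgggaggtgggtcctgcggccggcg
A match of letters is a description of the sequence and not a binding site. The libraries enrich the 3′ ends of transcripts, so the counts do not show which start site was used.

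The count matrices held 59429 cells, of which 44360 had between 200 and 3000 detected genes and no more than 10% of their UMIs from mitochondrial genes. A UMI, or unique molecular identifier, stands for 1 captured RNA molecule. The libraries kept 7562 cells for sham, 13376 for day 1, 9378 for day 3 and 14044 for day 7, with a median of 2507.5 to 3731.5 UMIs per cell. Cells were placed in classes by 8 marker genes each, and 93% of kept cells were placed. Classes are called "-like" because they rest on these markers alone. Endothelial-, oligodendrocyte-, vascular smooth muscle-, pericyte- and microglia-like classes had at least 50 cells in every library, and between 3 and 7 of their own markers stood among their 10 leading genes. Astrocyte- and neuron-like cells reached 50 in 3 or fewer libraries, as did choroid plexus-like cells. The inflammatory genes Ccl4 and Il1a were also among the 10 leading genes of the microglia-like class. Any 2 libraries shared 12 to 50 cell barcodes. Levels are given in CPM, the UMIs of a gene per 1000000 UMIs summed over the cells of 1 class in 1 library. Intervals in parentheses are 95% intervals of the counts, exact Poisson for a level and exact conditional for a ratio, and they cover counting error only.

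Within the sham library Sgk1 was highest in microglia-like cells. In oligodendrocyte-like cells it was 3.59 times its sham level on day 1 and 3.98 times on day 7. In the sham library it stood at 1259 (1153–1372) CPM in microglia-like, 394 (378–411) in oligodendrocyte-like, 267 (259–275) in endothelial-like and 185 (142–237) in choroid plexus-like cells, and these 4 intervals did not overlap. Below them were pericyte-like cells at 27.7 (16.4–43.8) CPM, neuron-like at 24.5 (11.8–45.1), vascular smooth muscle-like at 19.8 (16.1–24.1) and astrocyte-like at 4.78 (0.121–26.6), whose intervals overlapped. Over all kept cells Sgk1 was at 242, 579.9, 294 and 463 CPM in sham, day 1, day 3 and day 7. Oligodendrocyte-like cells gave 29.7% of all Sgk1 UMIs in sham, 62.0% on day 1, 28.5% on day 3 and 53.0% on day 7.

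**Figure D1:**
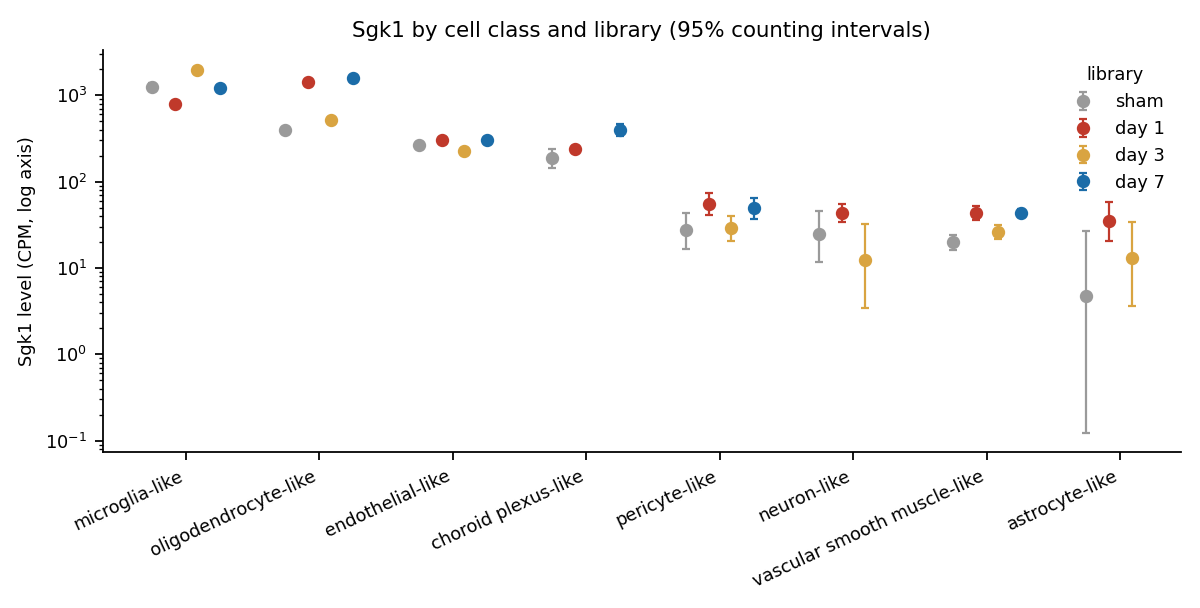
Sgk1 level in CPM on a log axis for the cell classes, 1 point per library with at least 50 cells of the class and bars for the 95% counting interval. Oligodendrocyte-like cells stand at 394 CPM in sham and 1569.8 CPM on day 7, while microglia-like cells are lowest on day 1 at 794 CPM.

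In oligodendrocyte-like cells, the myelinating glia of the brain, Sgk1 was at 394 CPM in sham, 1414 on day 1, 523 on day 3 and 1569.8 on day 7. Day 1 and day 7 were both high, and day 3 lay above sham but below those 2. The ratios to sham on day 1, day 3 and day 7 were 3.59 (3.43–3.75), 1.33 (1.25–1.40) and 3.98 (3.81–4.17). With up to 6000 genes allowed per cell they were 4.08, 1.58 and 4.48. Of the 5 members that reached 50 CPM in this class on day 1 or in sham, 2 were at least 2-fold higher, Sgk1 and Fkbp5, and none at least 2-fold lower, beside 1.87% and 0.969% of all genes at that level. On day 3 none of 4 was past 2-fold, beside 0.516% higher and 0.161% lower among all genes. On day 7 Sgk1 and Ddit4 were 2 of 4, beside 1.9% higher and 0.542% lower. Fkbp5 was under 50 CPM on day 7 and is not in that count, with a ratio of 6.02. Fold calls here and below add 10 CPM to both levels, and since the members were picked with these contrasts known, nothing is read from their counts.

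Microglia-like cells, the resident immune cells of the brain, had another order of libraries. Sgk1 was at 1259 CPM in sham, 794 on day 1, 1967 on day 3 and 1212 on day 7. Day 3 was the highest library in this class and day 1 the lowest. The ratios to sham were 0.631 (0.572–0.698), 1.56 (1.42–1.72) and 0.963 (0.868–1.07). On day 1, 12.8% of all genes were at least 2-fold higher in this class and the same share at least 2-fold lower, and 3 of 4 measured members, Tsc22d3, Per1 and Nr3c1, were among the lower. On day 3 none of 4 members was past 2-fold, beside 3.6% and 2.07% of all genes, and on day 7 only Ddit4 of 5 was, beside 3.31% and 2.22%. The 8 border macrophage markers summed to 7.29, 221, 59.1 and 190.3 CPM within the class in sham, day 1, day 3 and day 7, and the 8 monocyte markers to 493, 935, 699 and 625 CPM, beside 35271, 28632, 35937 and 29730.2 CPM for its own. Their part in the result was not tested.

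Endothelial-like cells, the lining of the vessels, held Sgk1 at 267, 301, 226 and 304 CPM in the same order, a narrow range beside the other classes. The ratios were 1.13 (1.08–1.18), 0.847 (0.810–0.885) and 1.14 (1.10–1.18), and the day 1 ratio was 1.00 with up to 6000 genes allowed per cell. Of the members that reached 50 CPM, none was past 2-fold on day 1, of 5, or on day 3, of 4, beside 1.55% higher and 2.55% lower among all genes on day 1 and 2.12% and 0.907% on day 3. Fkbp5, at 27.4 CPM on day 1, was under that level and is not in the count, although its day 1 ratio of 10.1 was the highest of the members in this class. Choroid plexus-like cells, which secrete cerebrospinal fluid, were at 185 CPM in sham, 238 on day 1 and 396 on day 7, with ratios of 1.29 (0.987–1.70) and 2.14 (1.59–2.92). Only 78 sham and 103 day 7 cells stand behind the second of these.

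Pericyte- and vascular smooth muscle-like cells, the contractile cells of the vessel wall, held little Sgk1. Vascular smooth muscle-like cells were at 19.8, 43.3, 26.3 and 43.6 CPM, which was 8.19%, 7.46%, 8.95% and 9.42% of the level over all cells of the same library. Pericyte-like cells were at 27.7, 55.4, 29.1 and 49.6 CPM, or 11.4%, 9.55%, 9.89% and 10.7% of it. With a mitochondrial limit of 5% the ratio of vascular smooth muscle-like cells to sham was 3.42 on day 1 and 4.59 on day 7, against 2.18 and 2.20 as reported, and with classes from clusters it was 3.68 on day 1. The cause of these differences was not tested. Among cells thinned to 1000 UMIs, between 1.49% and 4.47% of vascular smooth muscle-like and between 3.43% and 4.98% of pericyte-like cells had a UMI of Sgk1. In neuron-like cells the share was between 1.22% and 3.83%, and in astrocyte-like cells it was 1.89% on day 1 with 0 of 60 cells in sham and 0 of 81 on day 3, which allow up to 5.96% and 4.45% of cells with a UMI. No share in empty droplets was measured, and the part of free RNA in the Sgk1 of the vessel wall was not tested.

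Sgk1 was found in most oligodendrocyte-like cells on day 1 and day 7. Cells with fewer than 1000 UMIs were left out, and each other cell was thinned to 1000 UMIs. The share of cells with at least 1 UMI of Sgk1 was then 25.7% (22.6–28.9) in sham, 71.3% (69.4–73.2) on day 1, 34.0% (30.8–37.3) on day 3 and 70.7% (68.0–73.3) on day 7. The intervals are exact binomial over 752, 2222, 830 and 1140 cells. Without thinning the shares were 65.8%, 97.0%, 80.1% and 94.2%, at median depths of 7912, 4863.5, 6685 and 6318 UMIs. The mean was 0.398 UMIs of Sgk1 per thinned cell in sham and 1.48 on day 1. On day 1, 28.7% of the cells had none, and a Poisson spread around the same mean would give 22.9%. The tenth of the cells with the most Sgk1 held 31.0% of its UMIs that day and 60.5% in sham. This share also depends on the mean, so it does not by itself show how the level was spread.

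In microglia-like cells the share of cells with Sgk1 varied less between libraries than its level. The share with a UMI was 52.6% (42.1–63.0) in sham, 37.2% (32.4–42.1) on day 1, 46.2% (40.0–52.4) on day 3 and 49.8% (42.9–56.6) on day 7, over 95, 401, 260 and 217 thinned cells. On day 3, 53.8% of the cells had none where a Poisson spread would give 18.2%, and 13.8% held 5 UMIs or more, against 4.21% in sham. The tenth of the cells with the most Sgk1 held 42.5, 50.7, 54.0 and 50.8% of its UMIs in sham, day 1, day 3 and day 7, against 60.5, 31.0, 53.0 and 30.9% in oligodendrocyte-like cells. The level of day 3 thus came with a share of positive cells that overlapped that of sham and with more UMIs in the highest cells.

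**Figure D2:**
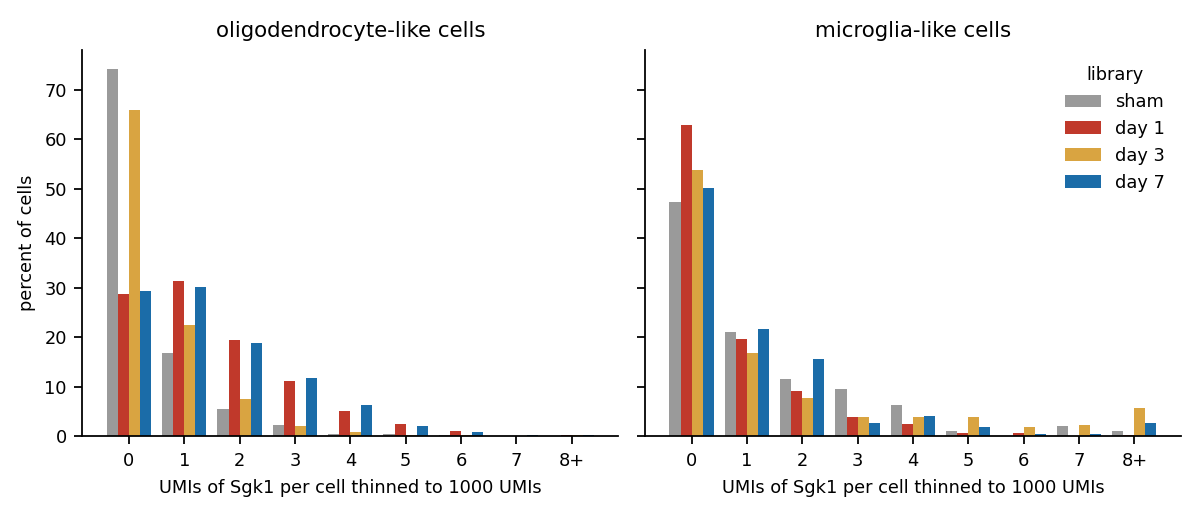
Percent of cells by their number of Sgk1 UMIs after thinning to 1000 UMIs, for oligodendrocyte-like and microglia-like cells in each library. In oligodendrocyte-like cells the share with no UMI is 74.3% in sham and 28.7% on day 1, and in microglia-like cells it is 53.8% on day 3.

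The receptor gene Nr3c1 (chr18:39410545-39519421, minus strand) had a lower level on day 1 than in sham in all 5 well-filled classes. In endothelial-like cells it was at 248 CPM in sham, 138 on day 1, 158 on day 3 and 251 on day 7, with ratios of 0.555 (0.527–0.584), 0.637 (0.606–0.669) and 1.01 (0.971–1.05). Day 1 and day 3 were the low libraries, and day 7 matched sham within counting error. Oligodendrocyte-like cells were at 150.2, 114, 132 and 192 CPM and vascular smooth muscle-like cells at 69.7, 43.6, 56.1 and 91.1 CPM, so that day 1 was again lowest and day 7 highest. Microglia-like cells were at 129, 32.5, 78.1 and 117 CPM, a day 1 ratio of 0.252 (0.174–0.368). Pericyte-like cells had a day 1 ratio of 0.860 (0.641–1.16), whose interval holds 1. Neuron-like cells went the other way, from 29.4 CPM in sham to 70.0 on day 1, a ratio of 2.38 (1.31–4.74).

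Fkbp5 (chr17:28399094-28517527, minus strand), which encodes the receptor's negative regulator, was scarce in sham and higher on day 1 in the same 5 classes. In oligodendrocyte-like cells it was at 2.81 CPM in sham, 51.4 on day 1, 8.80 on day 3 and 16.9 on day 7, from 16, 592, 47 and 118 UMIs. Every library after tMCAO was above sham, and day 1 was the highest. The ratios were 18.3 (11.2–32.2), 3.13 (1.74–5.91) and 6.02 (3.56–10.9). Endothelial-like cells were at 2.72, 27.4, 11 and 9.78 CPM and vascular smooth muscle-like cells at 1.60, 11.4, 4.87 and 9.27 CPM, with day 1 highest in both. With a mitochondrial limit of 5% the day 3 ratio of vascular smooth muscle-like cells turned from 3.04 to 0.575. The day 1 ratios of these classes were 10.1 (7.40–14.1) and 7.13 (3.23–17.9). Microglia-like cells were at 24.3, 48.5, 27.6 and 48.8 CPM, a day 1 ratio of 2.0 (1.04–4.29), and in pericyte-like cells the interval of the day 1 ratio, 2.34 (0.722–9.84), held 1. Astrocyte- and neuron-like cells had ratios of 4.63 (1.12–40.8) and 5.53 (1.44–47.1) on day 1, from 2 UMIs each in sham. Choroid plexus-like cells had 0 UMIs in sham, 2 on day 1 and 1 on day 7. Their day 1 level was 2.56% of that over all cells of the library, against 31.1% in vascular smooth muscle-like cells. The Fkbp5 locus overlaps 4 other annotated genes, AC154912.5 and AC154912.3 on the same strand and AC154912.1 and Gm22146 on the other, and reads that fit more than 1 gene may be missing from its count.

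**Figure D3:**
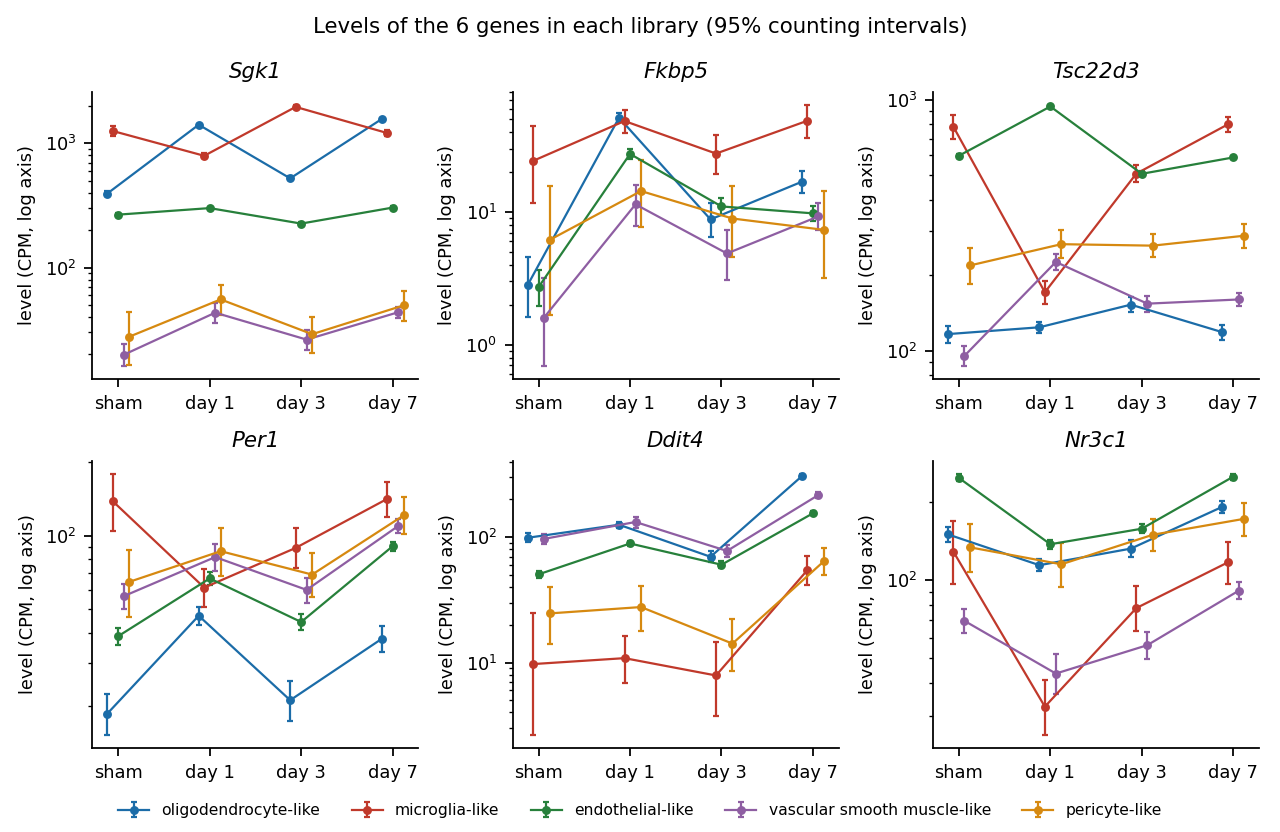
Level of each of the 6 genes in CPM on a log axis by library, 1 line per cell class and bars for the 95% counting interval. Fkbp5 is highest on day 1 in oligodendrocyte- and endothelial-like cells, Ddit4 is highest on day 7 in the 5 classes with 50 cells in every library, and Tsc22d3 in microglia-like cells is lowest on day 1.

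Tsc22d3 (chrX:140539528-140600659, minus strand), the gene of the anti-inflammatory protein GILZ, was near its sham level in oligodendrocyte-like cells on the days when Sgk1 was highest. There it was at 116 CPM in sham, 124 on day 1, 153 on day 3 and 119 on day 7, and the ratios were 1.06 (0.970–1.17), 1.31 (1.18–1.45) and 1.02 (0.918–1.13). Day 3 was the highest of the 4, with a ratio close to the 1.33 of Sgk1 on that day. Endothelial-like cells were at 598, 939.95, 507 and 589 CPM, and only day 1 stood above sham, with a ratio of 1.57 (1.53–1.61). Vascular smooth muscle-like cells were at 95.3, 226, 154 and 160.04 CPM, so that all 3 days lay above sham. Their day 1 ratio was 2.37 (2.10–2.67), and Tsc22d3 was the 1 of 4 measured members past 2-fold, beside 1.47% higher and 1% lower among all genes. Pericyte-like cells were at 219, 266, 262 and 287 CPM, with ratios of 1.22 (0.984–1.51), 1.20 (0.984–1.47) and 1.31 (1.07–1.61). Microglia-like cells were at 780.02, 171, 508 and 797 CPM, and their day 1 ratio, 0.219 (0.188–0.256), was the lowest of any member in the 5 classes.

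Per1 (chr11:69095217-69109960, plus strand) encodes a repressor of the circadian clock. In oligodendrocyte-like cells it was at 18.6 CPM in sham, 47.0 on day 1, 21.2 on day 3 and 37.7 on day 7, high on day 1 and day 7 as Sgk1 was. The ratios were 2.52 (2.04–3.14), 1.14 (0.864–1.5) and 2.03 (1.61–2.56). Endothelial-like cells were at 38.7, 66.8, 44.3 and 90.5 CPM and vascular smooth muscle-like cells at 56.5, 81.7, 60.0 and 109.5 CPM, with day 7 highest in both. The day 7 ratio of endothelial-like cells was 2.34 (2.14–2.56), and Per1 and Ddit4 were the 2 of 5 measured members past 2-fold there, beside 0.71% higher and 0.906% lower among all genes. Microglia-like cells were at 139, 61.3, 89.1 and 142 CPM, with day 1 lowest and a ratio of 0.442 (0.322–0.615). The hour at which each hemisphere was taken is not given in the sources used here, so time of day and library cannot be told apart for this gene.

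Ddit4 (chr10:59949669-59951834, minus strand), which encodes the mTORC1 inhibitor, was highest on day 7 in the same 5 classes. Oligodendrocyte-like cells were at 98.7 CPM in sham, 125 on day 1, 69.7 on day 3 and 307 on day 7. Endothelial-like cells were at 50.5, 88.9, 60.2 and 155 CPM, and vascular smooth muscle-like cells at 96.7, 132, 77.5 and 217 CPM. In these 3 classes the day 7 ratios were 3.10 (2.83–3.41), 3.07 (2.84–3.32) and 2.24 (2.02–2.48). The day 7 ratio was 2.61 (1.5–4.81) in pericyte-like cells and 5.62 (2.08–21.4) in microglia-like cells, the latter from 4 UMIs in sham and 56 on day 7. Ddit4 was the 1 of 4 members past 2-fold on day 7 in vascular smooth muscle-like and the 1 of 4 in pericyte-like cells, beside 1.7% higher and 0.182% lower among all genes in the first class and 2.17% and 0.834% in the second. No member was past 2-fold in vascular smooth muscle-like cells on day 3, of 4, or in pericyte-like cells on day 1, of 4, or day 3, of 3. The background there was 0.229% higher and 0.262% lower, 2.32% and 1.7%, and 0.497% and 0.852% of all genes. Day 3 was below sham in oligodendrocyte-like cells, at 0.705 (0.617–0.806), where Sgk1 was above it.

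Set side by side, the 6 genes did not share 1 direction and size in the 3 classes with most Sgk1 in the sham library. On day 1 in oligodendrocyte-like cells Sgk1 was at 3.59 times sham, Fkbp5 at 18.3 and Per1 at 2.52, while Ddit4 was at 1.27, Tsc22d3 at 1.06 and Nr3c1 at 0.761. On day 7 in that class Sgk1 was at 3.98, Fkbp5 at 6.02, Ddit4 at 3.10 and Per1 at 2.03 times sham, with Nr3c1 at 1.28 and Tsc22d3 at 1.02. Per1 stayed below 50 CPM in every library of this class. In endothelial-like cells on day 1 Sgk1 was at 1.13 times sham beside Fkbp5 at 10.1, Ddit4 at 1.76, Per1 at 1.72, Tsc22d3 at 1.57 and Nr3c1 at 0.555. In microglia-like cells on day 1 Sgk1, Tsc22d3, Per1 and Nr3c1 were below sham, Fkbp5 was at 2.0 times sham and the scarce Ddit4 at 1.11. On day 3 in that class Sgk1 was at 1.56 and Fkbp5 at 1.14 times sham, while Ddit4 was at 0.811, Tsc22d3 at 0.651, Per1 at 0.643 and Nr3c1 at 0.606. All these ratios share the sham library.

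Likeness to Sgk1 was measured as Pearson's r of log2(CPM + 10) over 20 points, the 5 classes in 4 libraries, after the mean of each class was removed. The points share libraries and depth, and r is given as a description. Among 7028 genes that reached 50 CPM in at least 1 point, Per1 had an r of 0.69 and rank 64, Fkbp5 had 0.54 and rank 347, Ddit4 had 0.49 and rank 579, Tsc22d3 had 0.35 and rank 1485, and Nr3c1 had 0.20 and rank 2672. The 5 genes most like Sgk1 were Ddx3x (r 0.88), which encodes an RNA helicase, Endod1 (0.87), Git1 (0.85), Zfp281 (0.84) and Zer1 (0.83). In oligodendrocyte-like cells Ddx3x was at 46.4, 75.0, 50.2 and 85.3 CPM and Endod1 at 210.3, 417, 238 and 413 CPM, both highest on day 1 and day 7. With the class means left in, the r of Per1 was -0.12 and that of Ddit4 was -0.09.

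The wider list of 24 other genes that glucocorticoids induce held several that were far higher in oligodendrocyte-like cells on day 1. There 14 of 24 reached 50 CPM, 5 were at least 2-fold higher and none at least 2-fold lower, beside 1.87% and 0.969% of all genes, and their median log2 ratio was 0.51 beside -0.04 over all genes. Cdkn1a, which encodes the cell cycle inhibitor p21, was at 8.61 CPM in sham, 204 on day 1, 13.3 on day 3 and 92.6 on day 7. Plin4, which encodes a lipid droplet coat protein, was at 6.68, 92.9, 21.3 and 70.2 CPM. Both were high on day 1 and day 7, with day 1 ratios of 23.8 (17.9–32.2) and 13.9 (10.1–19.8) and day 7 ratios of 10.8 (8.04–14.7) and 10.5 (7.55–15.0). Cebpd, a transcription factor gene, was at 14.8, 68.9, 31.3 and 18.5 CPM, and the metallothionein genes Mt1 and Mt2 had day 1 ratios of 2.42 (2.36–2.49) and 2.55 (2.27–2.86). On day 7 these 3 were at 1.25, 1.01 and 1.13 times sham. Day 7 had 3 of 15 genes at least 2-fold higher, namely Cdkn1a, Plin4 and Zbtb16, and day 3 had none of 11, beside 1.9% and 0.516% of all genes. Zbtb16, a zinc finger repressor gene, was at 16.9, 46.5, 25.8 and 60.6 CPM. Klf9, a receptor target in many cells, was at 144, 174, 139.7 and 281 CPM, highest on day 7. Fam107a stayed below 50 CPM in all 4 libraries, at 1.93, 21.6, 5.06 and 26.0 CPM, again with day 1 and day 7 high. The genes of this list named for oligodendrocyte-like cells were chosen after their values were seen. Cdkn1a, Plin4, Cebpd and Zbtb16 were under 50 CPM in sham and met that level only through libraries after tMCAO. Nothing is read from the counts that hold them.

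**Figure D4:**
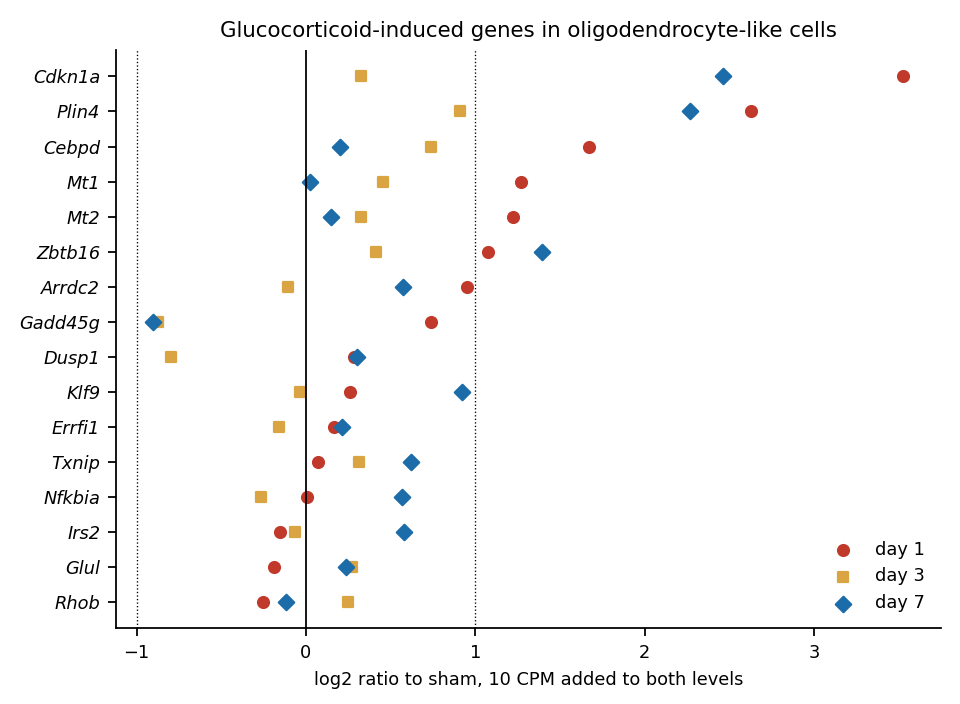
Log2 ratio to sham, with 10 CPM added to both levels, for the glucocorticoid-induced genes that reached 50 CPM in oligodendrocyte-like cells on at least 1 day, by day. Cdkn1a and Plin4 have the highest day 1 values of the list, and no gene of the list is past 2-fold on day 3. A gene shown past 2-fold on day 1 may lie under 50 CPM that day, as Zbtb16 does.

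Markers of other cell types were set beside these results. Within oligodendrocyte-like cells the 8 neuron markers summed to 115, 473, 119.6 and 159 CPM in sham, day 1, day 3 and day 7, and the 8 microglia markers to 23.2, 95.5, 75.3 and 70.5 CPM, beside 18812 to 20566 CPM for the class's own 8 markers. Those of oligodendrocyte progenitors summed to 1532, 932, 1373 and 1276 CPM. Neuron-like cells held Sgk1 at 43.5 CPM on day 1. Microglia markers summed to 28632 CPM in microglia-like cells that day, where Sgk1 was at 794 CPM. The part of these markers in the Sgk1 levels was not tested.

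In endothelial-like cells 3 of 15 genes of the same list were at least 2-fold higher on day 1 and none at least 2-fold lower, beside 1.55% and 2.55% of all genes. Angptl4, a lipase inhibitor gene, was at 13, 79.5, 9.01 and 34.8 CPM, with a day 1 ratio of 6.13 (5.29–7.12). Sult1a1, a sulfotransferase gene, was at 56.0, 138, 72.1 and 88.6 CPM, and Cebpd was at 120.4, 259, 395 and 162 CPM, highest on day 3. Map3k6, a stress kinase gene, was at 23.0, 55.4, 55.3 and 43.1 CPM. These 4 were named for their large day 1 ratios. The 15 measured genes of the list had a median log2 ratio of 0.32 beside -0.05 over all genes. Angptl4 and Map3k6 were under 50 CPM in sham and met that level only through libraries after tMCAO. In microglia-like cells 2 of 11 genes of the list were at least 2-fold higher on day 1 and 5 at least 2-fold lower, beside 12.8% of all genes each way. Mt2 was at 26.7, 213, 46.5 and 50.7 CPM, with a ratio of 7.97 (4.41–16.1) on day 1. Txnip, a redox regulator gene, was at 1509, 360.5, 929.6 and 1651 CPM, Dusp1, a phosphatase gene, at 3076, 759, 2173 and 3082 CPM, and Rhob, a small GTPase gene, at 3626, 1146, 3013 and 2952 CPM. Day 1 was the lowest library for all 3.

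Genes for receptor partners and ligand supply, 12 in all, reached 50 CPM only in part, with 8 to 9 of them measured in endothelial-like, 6 to 7 in oligodendrocyte-like and 5 in microglia-like cells. None of these was past 2-fold on any day, beside these shares of all genes higher and lower on day 1, day 3 and day 7. They were 1.55% and 2.55%, 2.12% and 0.907%, and 0.71% and 0.906% in endothelial-like, 1.87% and 0.969%, 0.516% and 0.161%, and 1.9% and 0.542% in oligodendrocyte-like and 12.8% and 12.8%, 3.6% and 2.07%, and 3.31% and 2.22% in microglia-like cells. In endothelial-like cells on day 1 the measured genes furthest from sham were all below it, the co-chaperone gene Fkbp4 at 0.620 (0.585–0.658), the coactivator gene Ncoa1 at 0.681 (0.625–0.743), the chaperone gene Hsp90ab1 at 0.778 (0.764–0.792) and the corepressor gene Ncor1 at 0.789 (0.749–0.831). In microglia-like cells those furthest from sham were Ncor1 at 0.642 (0.457–0.917), Ptges3 at 1.41 (1.02–1.98), Hsp90aa1 at 0.739 (0.617–0.889) and Fkbp4 at 0.768 (0.50–1.22). Of the 12 genes of the SGK1 kinase arm, 4 were measured in microglia-like cells on day 1 and 2 were at least 2-fold lower, with a median log2 ratio of -0.74 beside -0.05 over all genes. Rictor and Mapkap1, which encode subunits of the mTORC2 complex that phosphorylates SGK1, were those 2, at 0.279 (0.163–0.485) and 0.379 (0.219–0.674) of sham. Wnk1 was at 0.741 (0.602–0.917) and Sgk3 at 0.702 (0.428–1.20) there. In endothelial-like cells on day 1 Foxo1, whose protein SGK1 inhibits, was at 0.663 (0.613–0.716), Mapkap1 at 0.655 (0.593–0.724), the SGK1 substrate gene Ndrg1 at 0.771 (0.743–0.799) and Rictor at 1.14 (1.06–1.23). On day 7 Rictor was at 2.42 (2.27–2.58) of sham in that class. Sgk3 and Sgk2, the other kinase genes of the family, were chosen after their values were seen. In oligodendrocyte-like cells Sgk3 was at 26.2, 80.7, 37.3 and 58.3 CPM, highest on day 1 and day 7 as Sgk1 was, while Sgk2 was at 52.5, 25.4, 43.4 and 29.9 CPM, lowest on those days.

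Genes of other inputs to Sgk1, Per1 and Ddit4 were set beside them. Immediate-early genes answer acute stimulation and also tissue handling, and 6 of 8 were at least 2-fold lower and 1 at least 2-fold higher in microglia-like cells on day 1, beside 12.8% of all genes each way. Their sum was 28064, 7570, 16727 and 21801 CPM in that class in sham, day 1, day 3 and day 7. Jun was at 0.15 (0.142–0.159) of sham on day 1, Fosb at 0.161 (0.136–0.190), Fos at 0.18 (0.171–0.190) and Junb at 0.332 (0.316–0.349). Nr4a1 was the gene that was higher, at 2.99 (2.21–4.14) of sham on day 1. In oligodendrocyte-like cells the sum was 2944, 3975, 1984 and 3512 CPM, and Atf3 and Junb were 2 of 7 genes at least 2-fold higher on day 1, beside 1.87% of all genes. The sum in endothelial-like cells was 10895, 10063, 8659 and 13558 CPM, and there Nr4a1 was at 2.21 (2.11–2.33), Egr1 at 1.65 (1.58–1.71), Jun at 0.688 (0.679–0.698) and Fos at 0.895 (0.885–0.905) of sham on day 1. The part of tissue handling in these values was not tested.

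Of the 11 other clock genes, 6 were measured in endothelial-like cells on day 1, and 1 was at least 2-fold lower, beside 2.55% of all genes. Their median log2 ratio was -0.22 beside -0.05 over all genes. Dbp was at 0.412 (0.388–0.436), Nr1d1 at 0.757 (0.694–0.825), Per3 at 0.808 (0.747–0.874) and Clock at 0.868 (0.792–0.951) of sham. On day 7, when Per1 was highest, the 6 measured clock genes had a median log2 ratio of 0.41 beside 0.06 over all genes. In vascular smooth muscle-like cells on day 7 the median of the 7 measured clock genes was 0.87 beside 0.07. No clock gene of the 11 reached 50 CPM in microglia-like cells on any day. Of the 8 hypoxia genes, the glycolytic genes Pgk1 and Ldha were at 3.07 (1.96–5.10) and 2.35 (1.78–3.15) of sham in microglia-like cells on day 1, with the glucose transporter gene Slc2a1 at 0.822 (0.506–1.39). In endothelial-like cells the vasodilator peptide gene Adm was at 2.24 (2.05–2.44), Pgk1 at 1.36 (1.26–1.47), Slc2a1 at 1.30 (1.28–1.32) and Bnip3 at 1.34 (1.22–1.46). On day 7, when Ddit4 was highest, Pgk1 and Ldha were at 1.20 (0.716–2.11) and 1.22 (0.894–1.69) in microglia-like cells. In endothelial-like cells on day 7 the 5 measured hypoxia genes had a median log2 ratio of 0.34, beside 0.06 over all genes. On day 3, when Ddit4 was at 1.19 of sham in that class, the median of 6 measured hypoxia genes was 0.74. The median over all genes was -0.002. The integrated stress response genes Ddit3 and Atf4 were at 0.517 (0.336–0.815) and 0.779 (0.582–1.06) in microglia-like cells on day 1, and Atf4 was at 0.941 (0.886–0.999) in endothelial-like cells.

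Cells with a UMI of Sgk1 (Sgk1+) were then compared with cells without one (Sgk1-) inside the same class and library, each thinned to 1000 UMIs. Cells with fewer UMIs than that were again left out. Cells are not replicates, so the ratios describe these libraries and carry no test, and a ratio is given where a gene had at least 50 UMIs. In oligodendrocyte-like cells of day 1 none of the other members differed beyond counting error between 1585 Sgk1+ and 637 Sgk1- cells. The ratio was 1.31 (0.819–2.16) for Fkbp5, 0.989 (0.768–1.28) for Tsc22d3, 0.859 (0.549–1.37) for Per1, 1.14 (0.865–1.53) for Ddit4 and 1.10 (0.830–1.48) for Nr3c1. Without thinning that of Fkbp5 was 0.754, on the other side of 1. In sham, with 193 Sgk1+ and 559 Sgk1- cells, Ddit4 was at 166 against 76.9 CPM, a ratio of 2.16 (1.32–3.49). On day 3 the ratio was 1.51 (1.01–2.23) for Nr3c1 and 1.35 (0.778–2.31) for Ddit4, and the second interval held 1. At least 25% higher were 1 of 3 measured members in sham, 1 of 5 on day 1, 2 of 3 on day 3 and 0 of 3 on day 7, beside 12.8%, 12.9%, 12.5% and 13% of all genes.

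Immediate-early genes separated Sgk1+ from Sgk1- oligodendrocyte-like cells in 3 libraries. Fos, the marker of recent stimulation, had a ratio of 2.78 (2.50–3.09) in sham, 1.06 (0.993–1.13) on day 1, 2.76 (2.40–3.18) on day 3 and 1.73 (1.55–1.94) on day 7. The median ratio over the measured immediate-early genes was 2.78, 0.997, 2.38 and 1.70, from 5, 8, 6 and 6 genes. Of the measured glucocorticoid-induced genes, 7 of 9, 2 of 17, 4 of 10 and 2 of 14 were at least 25% higher in sham, day 1, day 3 and day 7, beside 12.8%, 12.9%, 12.5% and 13% of all genes. Their medians were 1.47, 1.08, 1.12 and 1.11, beside 0.985, 0.995, 1.00 and 0.985 over all genes, and the counts of day 1 and day 7 lay near the share of all genes. For the immediate-early genes day 1 was the exception, although its share of Sgk1+ cells was close to that of day 7. With Sgk1+ set at 3 UMIs or more, a setting chosen after the data were seen, the Fos ratios were 3.69, 1.07, 6.34 and 1.74. Without thinning, the Fos ratio of day 7 was 1.04. Endothelial markers in the same sham cells summed to 301 CPM in Sgk1+ and 131 in Sgk1- cells, a ratio of 2.30 (1.60–3.30). On day 1, day 3 and day 7 that ratio was 0.811 (0.660–1.00), 0.920 (0.703–1.20) and 0.491 (0.383–0.630). On day 1 vascular smooth muscle markers were at 0.524 (0.373–0.740), pericyte at 0.626 (0.425–0.932), fibroblast at 0.355 (0.165–0.756) and neutrophil markers at 0.113 (0.0412–0.268). Monocyte markers were at 3.89 (1.04–17.7) on day 3 and microglia markers at 0.623 (0.396–0.991) on day 7. The part of these markers in the Fos ratios was not tested. With the cells marked as doublets left out, the sham ratio of Fos was 2.34.

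In endothelial-like cells Tsc22d3 had a higher level in Sgk1+ cells in 3 libraries, and on day 7 its interval held 1. It was at 681 CPM in 653 Sgk1+ and 438 in 3543 Sgk1- cells of sham, a ratio of 1.55 (1.40–1.73). The ratios of day 1, day 3 and day 7 were 1.15 (1.07–1.22), 1.58 (1.41–1.76) and 1.08 (0.999–1.16). On day 3, the library with the highest Tsc22d3 ratio, pericyte markers were at 1.80 (1.47–2.19), vascular smooth muscle markers at 1.26 (1.10–1.45) and neuron markers at 1.33 (1.12–1.58) times as much in Sgk1+ cells, while in sham they were at 0.660 (0.479–0.892), 0.796 (0.668–0.944) and 0.766 (0.627–0.929). Oligodendrocyte markers were at 1.33 (1.13–1.58) and neutrophil markers at 0.0931 (0.0371–0.195) on day 1. Their part in the Tsc22d3 ratio was not tested. Per1, Ddit4 and Nr3c1 had ratios between 0.828 and 1.23, and all 12 of their intervals held 1. For Per1 on day 3 the ratio of 0.954 became 1.84 at 2000 UMIs, 1.49 with doublets left out and 2.48 with Sgk1+ set at 3 UMIs. At least 25% higher were 1 of 4, 1 of 5, 1 of 5 and 1 of 5 measured members, Tsc22d3 in sham and on day 3 and Fkbp5 on day 1, at 1.26 (0.866–1.82), and day 7, at 1.28 (0.727–2.16), both with intervals that held 1 and the first at 0.421 with Sgk1+ set at 3 UMIs, beside 11.6%, 9.49%, 10.6% and 7.8% of all genes. Of the measured glucocorticoid-induced genes, 9 of 17, 6 of 18, 8 of 18 and 4 of 20 were at least 25% higher, with medians of 1.39, 1.21, 1.21 and 1.13, beside 0.931, 0.976, 0.939 and 0.982 over all genes. All 8 immediate-early genes were at least 25% higher in each of the 4 libraries, with medians of 2.02, 1.84, 3.22 and 1.45.

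In microglia-like cells only Tsc22d3 among the other members had 50 UMIs. Its ratio was 1.37 (0.851–2.23) in sham, 1.69 (1.01–2.83) on day 1, 1.58 (1.03–2.44) on day 3 and 1.48 (1.08–2.04) on day 7, at least 25% higher in all 4 libraries, beside 30.5%, 20.7%, 24% and 27.3% of all genes. Without thinning it was 4.95, 1.63, 11.5 and 1.69. Of the measured glucocorticoid-induced genes, 5 of 6, 7 of 9, 7 of 7 and 6 of 6 were at least 25% higher, with medians of 1.98, 1.67, 2.20 and 1.66, beside 0.951, 0.931, 0.966 and 0.979 over all genes. All 7 measured immediate-early genes were too in each library, with medians of 2.59, 2.54, 2.90 and 1.51. Whether the glucocorticoid-induced list moved apart from the immediate-early genes was not tested in this class or in oligodendrocyte- and endothelial-like cells. The class's own markers were at 1.01 to 1.12 times as much in Sgk1+ cells. On day 7 monocyte markers were at 1.61 (1.10–2.38) and endothelial markers at 0.567 (0.369–0.861) times as much, and on day 3 pericyte markers at 0.0937 (0.0108–0.376). Their part in the ratios was not tested.

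**Figure D5:**
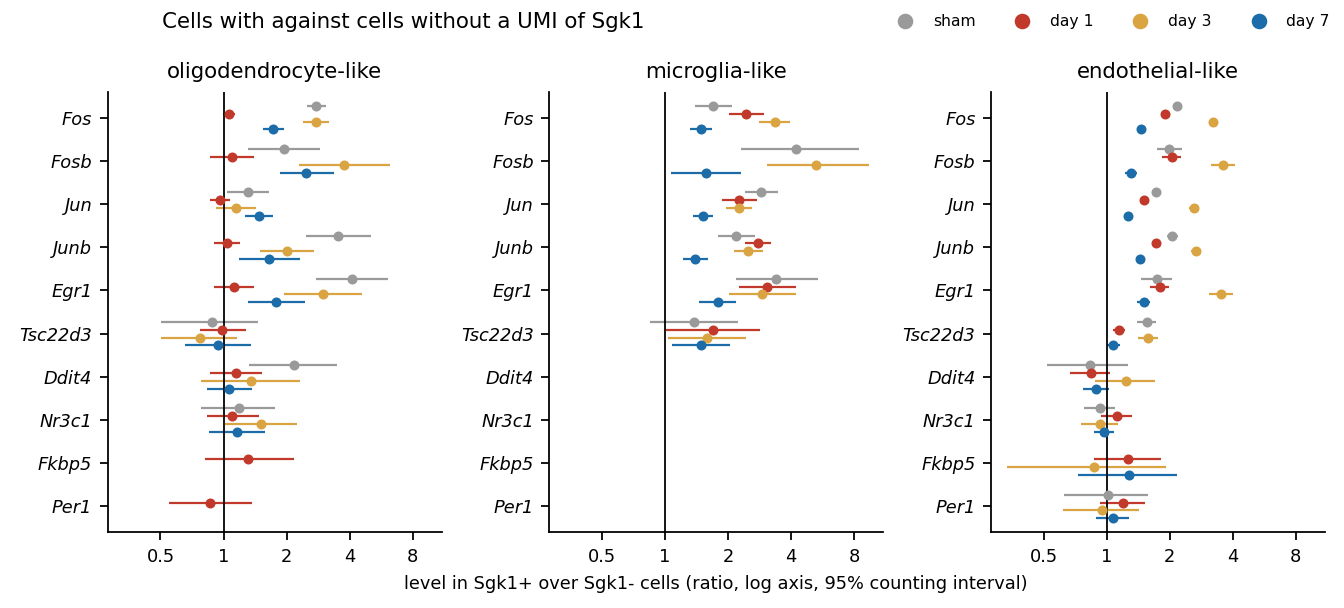
Ratio of the level in cells with a UMI of Sgk1 to that in cells without, on a log axis with 95% counting intervals, for genes with at least 50 UMIs in 3 classes, 1 colour per library. Fos is at 2.78 in sham and 1.06 on day 1 in oligodendrocyte-like cells, and Tsc22d3 in endothelial-like cells is at 1.55 in sham.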

How the data were processed

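Droplet libraries of 4 groups (sham and day 1, day 3 and day 7 after tMCAO, 1 each) were read as the UMI count matrices the authors deposited. The deposited counts are raw and were made by Cell Ranger, version 3.0.1 in the submitters' processing notes and 4.0.0 in the matrix headers. The notes name the human build GRCh38, but the gene identifiers are mouse. Kept cells met the study's stated limits on genes and mitochondrial share, and the study analysed more cells than these limits leave here.

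A cell was placed in the class with the most detected markers, given at least 3 of 8 and a lead of 2 over any other class. Counts were summed per class and library and scaled to CPM. Ratios carry exact conditional intervals at 95%. With 1 library per group there is no test and no p-value, and "2-fold" refers to log2(CPM + 10) for genes with at least 50 CPM in 1 of the 2 libraries. A gene can meet that level through its higher library alone, so counts of genes past 2-fold are a description. The computation was tested on simulated data. Cells were thinned to 1000 UMIs with a fixed seed for shares and for Sgk1+ against Sgk1- cells. Cells with fewer than 1000 UMIs were left out there, so these results cover the deeper cells of a class. In sham, day 1, day 3 and day 7 this left out 34, 92, 105 and 66 of 129, 493, 365 and 283 microglia-like cells. Of 4804, 6734, 5670 and 9071 endothelial-like cells it left out 608, 1581, 685 and 1546. Doublets were kept, and as an alternative the 5% of cells with the highest Scrublet score in each library were left out, since the automatic threshold marked only 2 to 582 cells per library. Python 3.11.15, scanpy 1.11.5, scipy 1.17.1, numpy 2.4.6, pandas 2.3.3 and scikit-learn 1.9.0 were used. Gene positions are from the GENCODE annotation of GRCm38 and promoter windows from RefSeq (GRCm38.p6), in which 5 of the 6 members were matched.

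The members and gene lists were chosen with earlier results of these data known. Besides the members, the text names up to 4 genes of each list with the largest day 1 ratio in the microglia-like class, where Sgk1 has its highest sham level, and in the endothelial-like class, and the 5 genes most like Sgk1. Alternatives were other limits on genes and mitochondrial share, classes from clusters, a gate needing 1 more marker, doublets left out, scaling by the median ratio over genes, other thinning depths, other added CPM values, a level filter of 20 CPM and Sgk1+ at 3 UMIs, the last chosen after seeing the data.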

Additional observations from a re-analysis of the deposited data

Results flagged for a closer look

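Some classes moved in opposite directions against the same sham library, and the difference between them was not tested, since each group was 1 library. On day 1 Sgk1 was at 3.59 times sham in oligodendrocyte-like and 0.631 times in microglia-like cells. These values lay at percentile 99.4 and 25.3 of all measured genes of the class. In microglia-like cells 12.8% of all genes were at least 2-fold higher and 12.8% at least 2-fold lower on day 1. Per1 was at 2.52 times sham in oligodendrocyte-like and 0.442 times in microglia-like cells on that day. Tsc22d3 was at 2.37 times sham in vascular smooth muscle-like and 0.219 times in microglia-like cells on day 1, and at 1.62 and 0.651 times on day 3.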

How the results depend on the processing

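Of 540 recomputed ratios of the members to sham, 486 moved by less than their counting interval and 53 further. Under an alternative 20 lay on the other side of 1, of which 18 stayed within the interval. The others were Fkbp5 in vascular smooth muscle-like cells and Ddit4 in endothelial-like cells, both on day 3. Fkbp5 was at 0.575 of sham with a mitochondrial limit of 5%, against a ratio of 3.04 with no CPM added, and is not among those 53. Ddit4 was at 0.990 with up to 6000 genes per cell, against 1.19. For Sgk1, a limit of 6000 genes per cell gave 1.00 on day 1 and 1.08 on day 7 in endothelial-like, 4.08, 1.58 and 4.48 on day 1, day 3 and day 7 in oligodendrocyte-like and 0.545 on day 1 in microglia-like cells. The mitochondrial limit of 5% gave 1.08, 0.803 and 1.09 in endothelial-like cells, 3.42 on day 1 and 4.59 on day 7 in vascular smooth muscle-like and 3.36 on day 7 in oligodendrocyte-like cells. Classes from clusters gave 3.68 in vascular smooth muscle-like cells on day 1 and 1.40 in microglia-like cells on day 3. Scaling by the median ratio over genes gave 1.10 in endothelial-like cells on day 7, and there 1 gene of the glucocorticoid list instead of 2 was 2-fold higher. Of 60 recomputed shares of cells with a UMI of Sgk1, 37 moved by more than their interval and 23 by less. The share of oligodendrocyte-like cells with a UMI of Sgk1 was 13.4%, 47.9%, 23.0% and 50.4% after thinning to 500 UMIs, 65.8%, 97.0%, 80.1% and 94.2% without thinning, and 68.0% on day 1 with up to 6000 genes. In microglia-like cells it was 28.7%, 21.7%, 25.8% and 31.8% at 500 UMIs, and 53.8% on day 1 and 61.5% on day 7 without thinning. Of 279 recomputed ratios between Sgk1+ and Sgk1- cells, 70 moved by more than their interval, and 48 lay on the other side of 1, 32 of them within the interval. Between Sgk1+ and Sgk1- endothelial-like cells, Tsc22d3 was at 2.0, 1.42, 2.15 and 1.26 with Sgk1+ set at 3 UMIs, at 1.35 on day 3 at 2000 UMIs and at 1.21 on day 7 without thinning. In microglia-like cells without thinning it was at 4.95 in sham and 11.5 on day 3. Fos between oligodendrocyte-like cells was at 4.97 in sham without thinning, 2.34 with doublets left out and 3.69 at 3 UMIs. It was at 1.13 on day 1 with doublets left out, 6.34 on day 3 at 3 UMIs, and 2.19 at 2000 UMIs and 1.04 without thinning on day 7. In vascular smooth muscle-like cells, Tsc22d3 in sham and Nr3c1 on day 3 had 0 UMIs in 11 and 18 Sgk1+ cells and so no direction, and they were at 1.01 with doublets left out and at 1.30 at 2000 UMIs. With class means left in, the likeness to Sgk1 was -0.12 for Per1 and -0.090 for Ddit4. The cause of these differences was not tested.

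No paired analysis was possible because each group was 1 library, and for the same reason no library was left out of a group. Counting error is the only error these data give, and the spread between mice is unknown. Depth limits the scarce genes most, such as Fkbp5 in sham and Ddit4 in microglia-like cells.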
